A study of Mus musculus with 59 samples.

Results

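Brown adipose tissue (BAT) of BATKO mice was compared with that of control (CTRL) mice after 24 h at 4 °C. The members are the count columns of 7 of the 59 mice of the series, chosen by genotype and temperature labels, with 4 BATKO mice (numbers 7, 8, 11 and 12) and 3 CTRL mice (numbers 1, 2 and 5). All were C57BL/6J males aged 8 to 12 weeks. The same experiment held 5 BATKO and 4 CTRL mice at 30 °C, a temperature at which a mouse needs little extra heat. In the sources used here the time spent at 30 °C, the allele behind the name BATKO and the cell type in which it acts were not stated, so that the comparison is given by its labels. No single targeted gene could therefore be checked first. The genes of the thyroid hormone receptors, *Thra* and *Thrb*, are reported below with the other gene lists.

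BAT turns chemical energy into heat. In the cold, noradrenaline from sympathetic nerves acts on adrenergic receptors of brown adipocytes, raises cAMP and induces a program that includes the uncoupling protein *Ucp1*, the coactivator *Ppargc1a* and the deiodinase *Dio2*, which makes the active thyroid hormone T3 inside the cell. Lipid and glucose uptake, glycolysis, lipid synthesis and the respiratory chain are raised along with it.

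The count per mouse was between 9181674 and 12887313 at 4 °C. All brown adipocyte markers were detected, and their summed level was 15320 to 25100 CPM (counts scaled to the total of each library) in BATKO and 17410 to 23160 CPM in CTRL mice. Genes of the mitochondrial genome took 48.6% ± 3.89 of the counts in BATKO (SD, n = 4) and 52.1% ± 4.89 in CTRL mice (SD, n = 3), a difference of -3.49 percentage points (exact two-sided permutation test, p = 0.343, smallest possible p of 0.0286 over 35 splits). The difference was -6.299 without CTRL mouse 1, -1.596 without BATKO mouse 11, -1.863 without CTRL mouse 5 and -2.295 without CTRL mouse 2. Markers of other cells also varied. The 8 fibroblast markers summed to 329 to 690 CPM in BATKO and 270 to 307 CPM in CTRL mice, and the 10 macrophage markers to 87.9 to 125 CPM against 67.3 to 72.0 CPM, in both cases without overlap in CPM. CPM leave out the scaling factors of the normalized counts, which were 0.828 to 0.992 in BATKO and 0.716 to 0.826 in CTRL mice. Overlap may thus differ after scaling. Of 9 macrophage markers tested, 0 reached an adjusted p under 0.05 with edgeR or DESeq2. At an unadjusted p under 0.05 (edgeR), 1 was higher, as were 7.76% of all genes tested. The 6 white adipocyte markers (42.8 to 88.9 CPM against 13.4 to 50.7 CPM) overlapped between the groups. The 14 skeletal muscle markers overlapped only through BATKO mouse 12, at 21.4 CPM. The other BATKO mice had 1024, 1188 and 2099 CPM, all above the CTRL mice at 153, 235 and 596 CPM. All 14 had a positive log2 fold change, with a median of 1.33, and 0 reached an adjusted p under 0.05 with edgeR or DESeq2. Of the 7 mice, BATKO mouse 12 was the lowest in skeletal muscle markers and BATKO mouse 11 the highest. Summed markers of lymphocytes, smooth muscle, nerve and Schwann cells, erythroid cells and endothelium overlapped too, and 1 nerve and Schwann cell marker was at 0 in all 7 mice. The part of other cell types in the results was not tested.

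Of 13239 genes tested, 160 were lower and 127 higher in BATKO than in CTRL mice at 4 °C, that is 1.21% and 0.959% of the genes (edgeR quasi-likelihood test, Benjamini-Hochberg adjusted p under 0.05). With DESeq2, 425 were lower and 218 higher. A gene that met this threshold is termed called in the following. The median log2 fold change was -0.95 over the called lower genes and 1.20 over the called higher genes, and 76 genes in each direction changed at least 2-fold. The mice of both groups did not overlap for 278 of the 287 called genes. Over all genes tested, BATKO was lower without overlap in 7.05% and higher without overlap in 6.13%. In bulk tissue, fewer cells of a type and less RNA per cell cannot be told apart.

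The number of calls depended on single mice. Without CTRL mouse 2, 35 genes were lower and 19 higher, and without CTRL mouse 5, 366 and 200. There were 71 calls in all without CTRL mouse 1, 78 without BATKO mouse 12, 141 without BATKO mouse 7 and 146 without BATKO mouse 8. No called gene changed sign when any of the 7 mice was left out. Of the 287 genes, 34 were called in each of the 7 fits, 20 lower and 14 higher. Among these 34 are 11 of the genes named by rule (largest changes and leading list members), namely *Bmp8b*, *Ckb*, *Arhgef37*, *Cars2*, *Ctsz*, *Elmod2*, *Per3*, *Svep1*, *Mmd*, *Hlf* and *Pde1a*. *Kdr*, *mt-Rnr1*, *Egln1* and *Nenf*, described further on, are also among them, while other described calls outside the rule were lost in part, as given with the plot of omitted mice.

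*Bmp8b*, which encodes a secreted bone morphogenetic protein made by brown adipocytes, had the largest drop among the genes described here. Its normalized count was 160, 120, 170 and 73.7 in the BATKO mice and 2009, 1261 and 1271 in the CTRL mice. The lowest CTRL mouse was thus far above the highest BATKO mouse, with a CTRL level 11.6-fold that of BATKO (log2 fold change -3.53, SE 0.39, adjusted p = 3.98e-04). At 30 °C the gene was low in both genotypes, at 2.53 to 26.2 in BATKO and 9.82 to 24.0 in CTRL mice. Its log2 fold change from 30 °C to 4 °C was 6.38 in CTRL and 3.47 in BATKO mice, comparisons that share their 4 °C mice with the genotype contrast. *Bmp8b* (chr4:123105165-123132099, GRCm38, + strand) overlaps *Gm17244* on the other strand by 339 exonic bases, and the strand setting of the counting is not stated. Other described genes overlap a gene on the other strand as well, so that reads of each pair cannot be told apart without strand. The exonic overlap is 1469 bases for *Gnas* (with *Gm20721*), 2244 for *Svep1*, 839 for *Adrb3*, 748 for *Pfkp*, 404 for *Acsl5* and 375 for *Gmpr*. It is 166 bases for *Cyp51*, 157 for *Hk1*, 146 for *Cpne5*, 100 for *Dio2* and 81 for *Fabp3*.

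*Ckb*, the cytosolic creatine kinase that brown adipocytes use to recycle creatine, was lower in BATKO mice. Its counts were 66.3, 118, 120 and 68.7 in BATKO and 550, 719 and 480 in CTRL mice, a CTRL level 6.26-fold higher (log2 fold change -2.65, SE 0.32, adjusted p = 6.78e-04). BATKO mice at 30 °C held 61.7 to 185, a range that includes their values at 4 °C, while CTRL mice at 30 °C held 34.3 to 73.0. From 30 °C to 4 °C its log2 fold change was 3.43 in CTRL (adjusted p = 7.08e-07) and -0.27 in BATKO mice (adjusted p = 0.480). *Alpl*, the phosphatase placed in the same creatine cycle, was also called lower, with 241 to 547 in BATKO against 629 to 910 in CTRL mice (log2 fold change -1.06, SE 0.26, adjusted p = 0.0426). Of 7 creatine cycle genes, 6 were tested and 2 called, both lower, where 1.21% of all genes tested were called lower. The list held 3 positive and 3 negative values, with a median of 0.04 and a maximum of 1.82 (*Ckmt2*, not called).

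*Cars2* encodes the mitochondrial cysteinyl-tRNA synthetase and *Ctsz* a lysosomal cathepsin. *Cars2* counted 155, 215, 298 and 184 in BATKO mice and 1412, 961 and 935 in CTRL mice (log2 fold change -2.37, SE 0.20, adjusted p = 1.16e-05). It shares 422 exonic bases with *Naxd* on the opposite strand. *Ctsz* counted 1520, 1628, 2258 and 1297 against 7683, 6895 and 4709 (log2 fold change -1.94, SE 0.23, adjusted p = 5.44e-04), and shares 10 bases with *Nelfcd* on the opposite strand. *Arhgef37*, a guanine nucleotide exchange factor of small GTPases, counted 34.2, 60.5, 17.7 and 25.3 in BATKO mice and 201, 164 and 180 in CTRL mice (log2 fold change -2.40, SE 0.31, adjusted p = 0.00105). For these 3 genes, the BATKO mice lay between the levels of the 30 °C mice and those of the cold CTRL mice. The plot of counts by mouse draws *Cars2* and *Ctsz* of the 3.

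**Figure D1:**
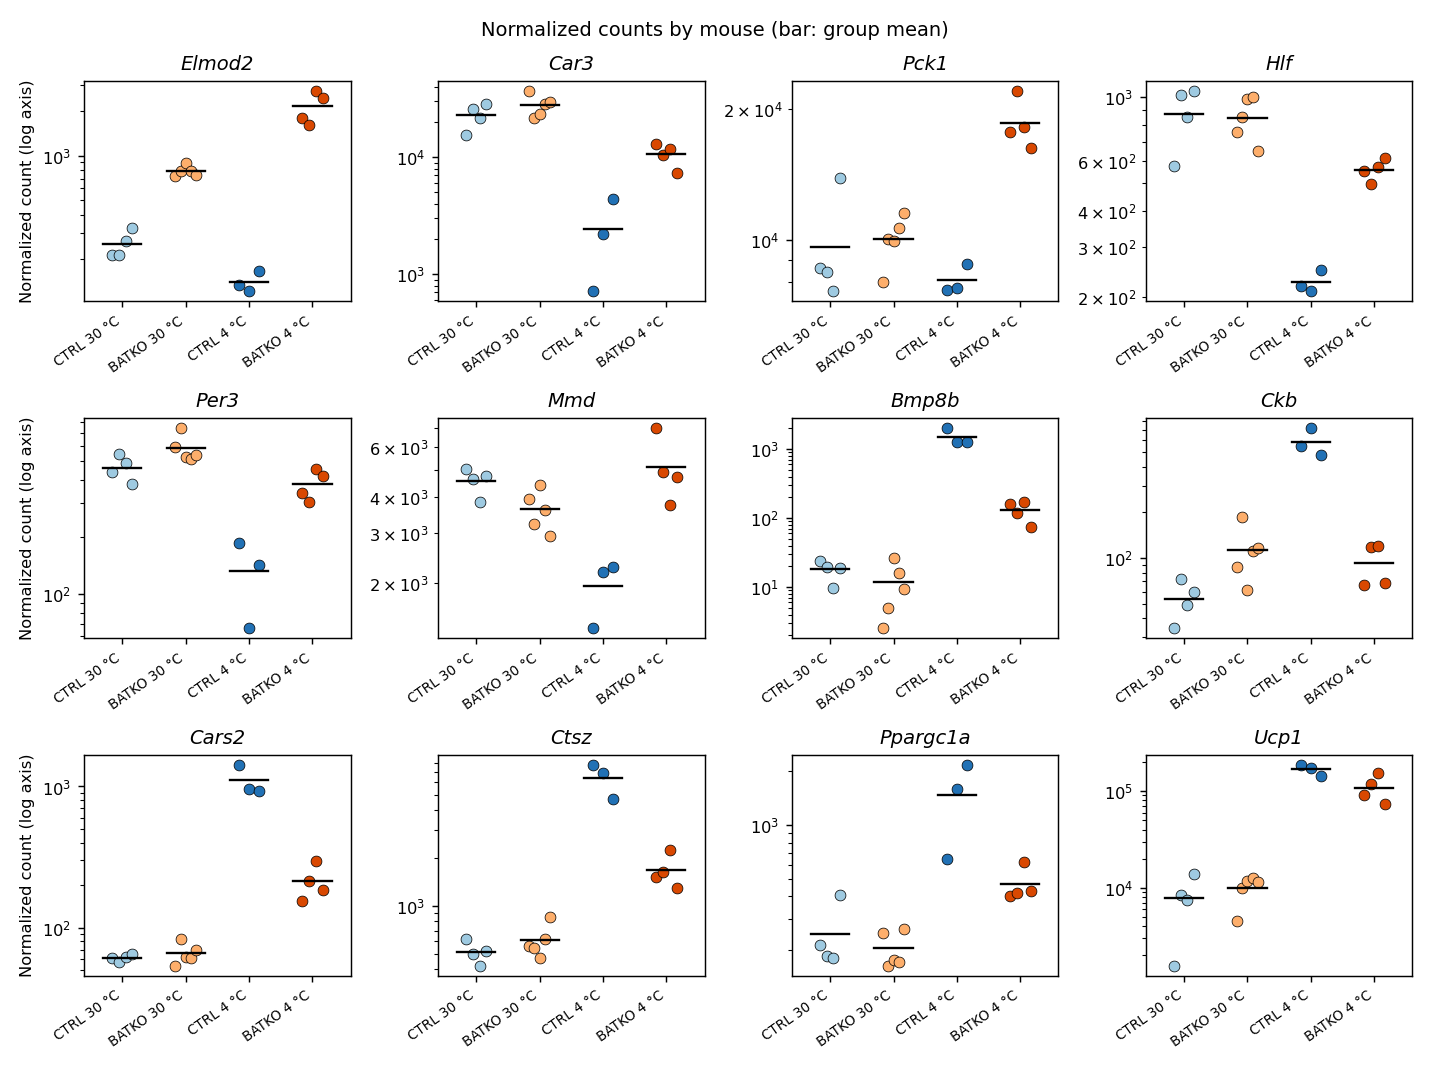
Normalized counts (log axis) of 12 genes in each mouse, by genotype and temperature, with a bar at each group mean. In the first 6 panels the BATKO mice at 4 °C lie above the CTRL mice at 4 °C, in *Bmp8b*, *Ckb*, *Cars2*, *Ctsz* and *Ppargc1a* they lie below them, and in *Ucp1*, which was not called, both groups overlap.

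Other large drops were more variable between mice. *Gmpr*, a GMP reductase of purine metabolism, counted 606, 1425, 5200 and 1557 in BATKO and 9042, 13120 and 8753 in CTRL mice (log2 fold change -2.23, SE 0.48, adjusted p = 0.0266), with BATKO mouse 11 well above the other BATKO mice. *Ifi27l2a*, an interferon-induced gene, had 163 to 613 in BATKO and 1028 to 1934 in CTRL mice (log2 fold change -2.11, SE 0.44, adjusted p = 0.0238). *Rspo4*, an R-spondin that strengthens Wnt signaling, had 2.33 to 29.5 against 84.4 to 246 (log2 fold change -3.07, SE 0.69, adjusted p = 0.0304). *Cpne5*, a calcium-dependent membrane-binding copine, had 5.05 to 127 against 267 to 561 (log2 fold change -3.01, SE 0.73, adjusted p = 0.0411), and with DESeq2 it was not called (adjusted p = 0.153).

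*Ppargc1a*, the coactivator that drives mitochondrial biogenesis and *Ucp1* transcription, was lower in BATKO mice. Its counts were 404, 418, 624 and 430 in BATKO and 648, 1598 and 2163 in CTRL mice. The groups did not overlap, but the lowest CTRL mouse lay just above the highest BATKO mouse (log2 fold change -1.65, SE 0.34, adjusted p = 0.0219). The log2 fold change in the cold was 2.57 in CTRL and 1.19 in BATKO mice. *Ucp1* itself stood at 73000 to 152600 in BATKO and 144000 to 184500 in CTRL mice. These ranges overlapped, and the gene was not called (log2 fold change -0.63, SE 0.47, adjusted p = 0.554). *Dio2* counted 1426 to 4183 against 3641 to 5451 and was not called either (log2 fold change -0.62, SE 0.85, adjusted p = 0.772). Among the 24 cold and adrenergic induced genes of brown fat, *Bmp8b* and *Ppargc1a* were called lower and none higher, where 1.21% and 0.959% of all genes tested were called, with a median log2 fold change of -0.55 against 0.007 over all genes tested. DESeq2 called 3 of the list lower.

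The cAMP pathway itself held 1 call. Of 21 adrenergic receptor and cAMP signaling genes tested, *Gnas* was lower, where 1.21% of all genes tested were called lower. DESeq2 called 3 of the list lower and edgeR with RLE scaling 2. *Gnas* encodes the stimulatory G protein subunit that couples adrenergic receptors to adenylate cyclase. Its counts were 28600, 26540, 40150 and 36180 in BATKO and 57570, 66980 and 58490 in CTRL mice (log2 fold change -0.89, SE 0.19, adjusted p = 0.0266). *Adrb3*, the main adrenergic receptor of mouse brown adipocytes, counted 1378 to 1764 in BATKO and 1270 to 2174 in CTRL mice, with a log2 fold change of 0.02 (SE 0.31, adjusted p = 0.982) whose sign turned under DESeq2 (-0.001), under RLE scaling (-0.009) and without the mitochondrial genes (-0.007). The median over the list was 0.02.

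Thyroid hormone acts through receptors that bind DNA with RXR partners and recruit corepressors or coactivators. None of the 12 genes of receptors and partners was called by edgeR, 2 had an unadjusted p under 0.05 (16.7%, against 16.5% of all genes tested) and DESeq2 called 1. *Thra* counted 124 to 193 in BATKO and 156 to 241 in CTRL mice (log2 fold change -0.37, SE 0.22, adjusted p = 0.420). *Thrb* had 186 to 257 against 239 to 294 (log2 fold change -0.22, SE 0.17, adjusted p = 0.557). The coactivator *Ncoa2* had 289 to 412 against 178 to 243 without overlap, but was not called (log2 fold change 0.61, SE 0.17, adjusted p = 0.0752), and DESeq2 called it (adjusted p = 0.0405). *Thra* overlaps *Nr1d1* on the opposite strand by 263 bases.

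Among the 5 tested genes of hormone activation and transport, *Slco4a1*, an organic anion transporter that can carry thyroid hormone, was lower in BATKO mice. It counted 79.1, 166, 159 and 71.7 in BATKO and 440, 393 and 383 in CTRL mice (log2 fold change -1.77, SE 0.39, adjusted p = 0.0279). The gene is also in the list of known thyroid hormone induced genes, of which 11 were tested and no other was called by edgeR, where 1.21% of all genes tested were called lower. DESeq2 called 1 further gene of that list higher, *Desi1* (log2 fold change 0.88, adjusted p = 0.102 with edgeR and 0.0404 with DESeq2). *Hr*, which encodes a corepressor and is a widely used marker of the hormone, was low in the cold in both groups, at 12.8 to 27.3 in BATKO and 13.8 to 27.7 in CTRL mice (log2 fold change -0.27, SE 0.80, adjusted p = 0.905). *Klf9*, a zinc finger factor, counted 1194 to 1532 against 1215 to 2145 (log2 fold change -0.24, SE 0.20, adjusted p = 0.603). *Thrsp*, a lipogenic gene, counted 17510 to 38440 against 23760 to 62710 (log2 fold change -0.41, SE 0.29, adjusted p = 0.521).

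Of 23 genes of glucose uptake and glycolysis, 3 were called and all were lower, where 1.21% of all genes tested were called lower. DESeq2 called 6 lower. The 3 were the hexokinase *Hk1* and the phosphofructokinases *Pfkl* and *Pfkp*, which start and commit glycolysis. *Hk1* counted 247, 297, 224 and 155 in BATKO and 659, 596 and 444 in CTRL mice (log2 fold change -1.30, SE 0.23, adjusted p = 0.0122). *Pfkl* had 841 to 1757 against 1984 to 3648 (log2 fold change -1.06, adjusted p = 0.0362), and *Pfkp* had 599 to 986 against 1363 to 1659 (log2 fold change -0.86, adjusted p = 0.0321). The median of the list was -0.55, 91.3% of its genes had a negative sign against 49.2% of all genes tested, and 13 had an unadjusted p under 0.05 with a lower level, as had 8.78% of all genes tested.

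Lipid genes were called in both directions. Of 17 cholesterol synthesis genes tested, 2 were called, both lower, where 1.21% of all genes tested were called lower. In this list 7 genes were lower at an unadjusted p under 0.05, 82.4% had a negative sign and DESeq2 called 3 lower. *Cyp51*, a demethylase of sterol synthesis, had 397 to 673 in BATKO and 879 to 1050 in CTRL mice (log2 fold change -0.84, adjusted p = 0.0161). *Acsl5*, which activates fatty acids, counted 1964, 2799, 2057 and 1175 against 6599, 3916 and 5202 (log2 fold change -1.39, SE 0.27, adjusted p = 0.0172). *Fabp3*, a fatty acid binding protein of oxidative tissue, had 333 to 810 against 969 to 2945 (log2 fold change -1.72, SE 0.36, adjusted p = 0.0242). These last 2 were the calls by edgeR among 17 genes of fatty acid uptake and lipoprotein lipolysis, where 1.21% of all genes tested were called lower. The median of that list was -0.09, with 7 positive and 10 negative values, and DESeq2 called 3 lower. At an unadjusted p under 0.05, 5 of its genes were lower and 2 higher (29.4% and 11.8%, against 8.78% and 7.76% of all genes tested).

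By contrast, *Pck1*, the carboxykinase that supplies glycerol 3-phosphate for triglycerides, was higher in BATKO mice. Its counts were 17740, 22030, 18190 and 16250 in BATKO and 7647, 7737 and 8779 in CTRL mice (log2 fold change 1.20, SE 0.20, adjusted p = 0.00838). Every BATKO mouse was above every CTRL mouse, and also above the 30 °C mice of both genotypes, which held 7602 to 13880. *Pck1* was the 1 call of 6 tested genes of glycerol phosphate metabolism (0.959% of all genes tested were called higher). The median of these 6 was -0.40, with 2 positive and 4 negative values. *Gpat3*, the acyltransferase that takes up glycerol 3-phosphate, had 288 to 447 against 148 to 211 (log2 fold change 0.93, SE 0.22, adjusted p = 0.0381). It was the 1 call of 13 triglyceride synthesis genes, where 0.959% of all genes tested were called higher. The median of the list was -0.34, with 10 negative values and 6 genes lower at an unadjusted p under 0.05 (46.2%, against 8.78% of all genes tested). DESeq2 called 3 of the list lower and 1 higher. *Gpat3* overlaps *4930458D05Rik*, itself called higher, by 1052 bases on the opposite strand, and reads of this pair cannot be told apart without strand. *Scd1*, the fatty acid desaturase, had 197200 to 302400 against 96620 to 181900 without overlap but was not called (log2 fold change 0.89, SE 0.32, adjusted p = 0.165). It was the gene of de novo lipogenesis with the lowest adjusted p, and 0 of 20 genes of this list were called by edgeR or by DESeq2, with 2 at an unadjusted p under 0.05. No call was made by edgeR among 20 genes of fatty acid oxidation (4 at an unadjusted p under 0.05, 0 called by DESeq2) or 15 of lipolysis and lipid droplets (2 and 1), where *Acadvl* (log2 fold change -0.59, adjusted p = 0.148) and *Mgll* (-0.55, adjusted p = 0.141) came nearest.

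Of 76 nuclear genes of respiratory chain subunits, 3 were called and all were lower. *Cox7a1*, a subunit of cytochrome c oxidase of heart, muscle and brown fat, counted 2603, 2738, 1983 and 1736 in BATKO and 3708, 4130 and 4167 in CTRL mice (log2 fold change -0.82, SE 0.19, adjusted p = 0.0375). *Uqcrh*, of complex III, had a log2 fold change of -0.52 (adjusted p = 0.0470) and *Atp5e*, of the ATP synthase, one of -0.58 (adjusted p = 0.0419). The median over the list was -0.37, 92.1% of its genes had a negative sign, and 40 had a lower level at an unadjusted p under 0.05. Over all genes tested, 8.78% had a lower level at that threshold. DESeq2 called 18 genes of the list lower. None of the 8 subunits of the mitochondrial genome that were tested was called, but the ribosomal RNA genes of that genome, which lie outside the lists and were chosen after their values were seen, were lower. The 12S rRNA gene *mt-Rnr1* had a mean of 218700 in BATKO against 639500 in CTRL mice (log2 fold change -1.55, adjusted p = 0.00702) and the 16S gene *mt-Rnr2* one of 333200 against 694800 (log2 fold change -1.06, adjusted p = 0.0322). In a total RNA library, counts of rRNA also depend on its removal, for which no value is at hand. Identity genes of brown adipocytes were called in 3 of 20 cases, *Cox7a1*, *Fabp3* and *Esrra*, a nuclear receptor partner of *Ppargc1a* (log2 fold change -0.80, adjusted p = 0.0492), where 1.21% of all genes tested were called lower.

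**Figure D2:**
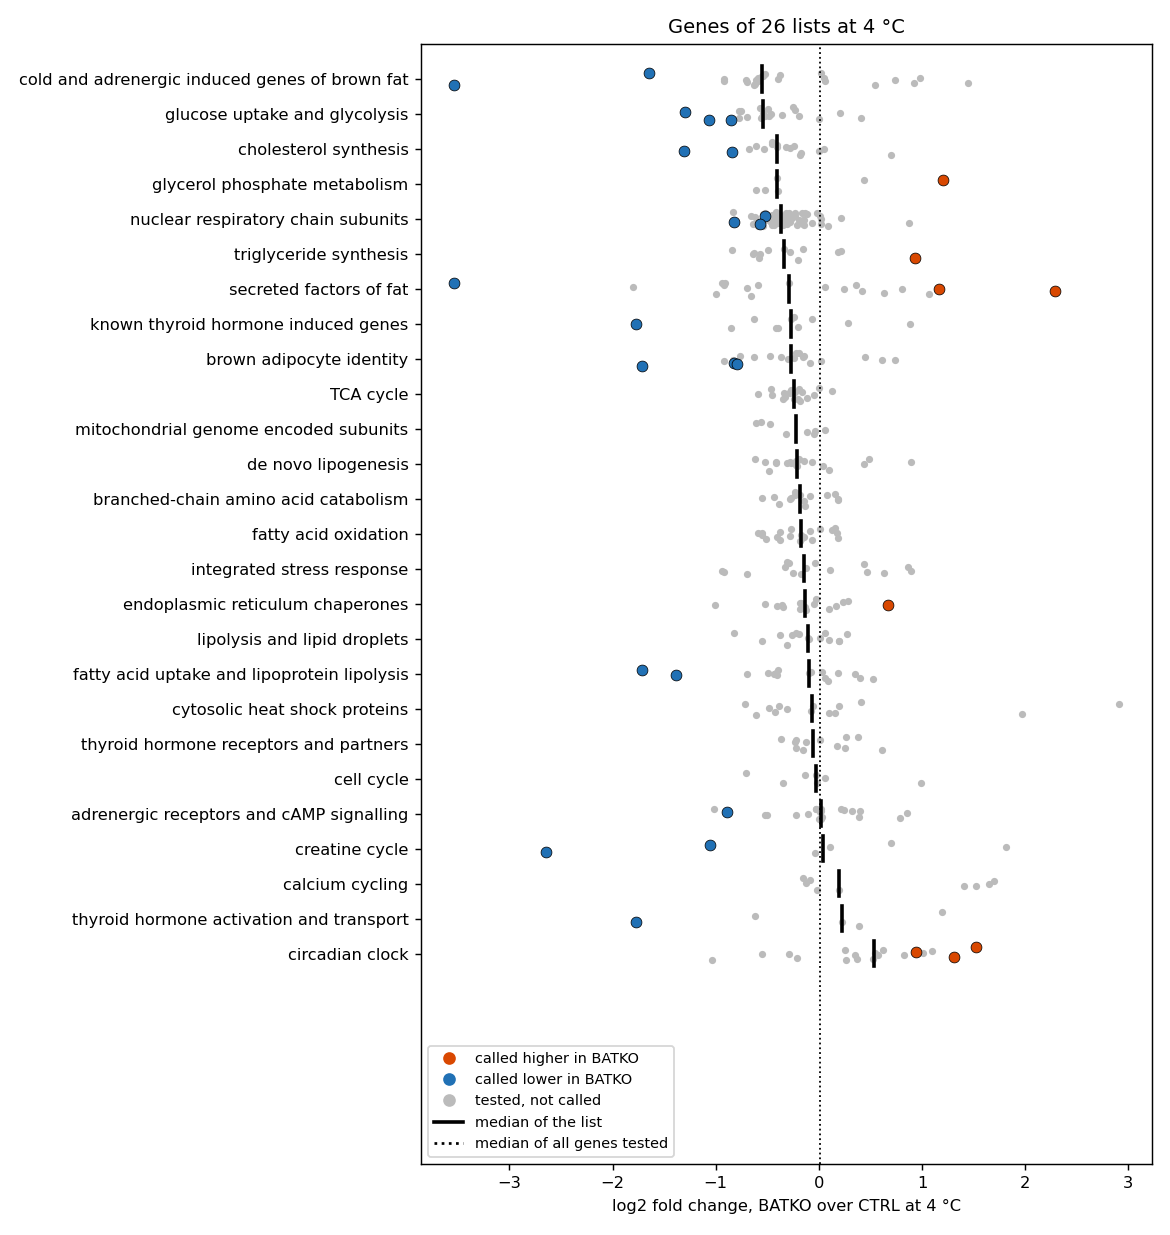
Log2 fold change of BATKO over CTRL mice at 4 °C for each tested gene of 26 lists, with called genes in colour, a bar at the median of each list and a dotted line at the median of all genes tested. The medians of cold and adrenergic induced genes (-0.55) and of glucose uptake and glycolysis (-0.55) lie furthest to the left and that of the circadian clock (0.54) furthest to the right.

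Of 18 genes of the circadian clock tested, 3 were called higher, *Per3* and *Hlf* among them, and none lower, where 0.959% of all genes tested were called higher. The median log2 fold change was 0.54, with 14 positive and 4 negative values. *Per3*, a period gene, counted 338, 306, 457 and 419 in BATKO and 187, 66.0 and 143 in CTRL mice (log2 fold change 1.52, SE 0.26, adjusted p = 0.0113). *Hlf*, a transcription factor driven by the clock, had 553, 496, 572 and 611 against 218, 210 and 249 (log2 fold change 1.31, SE 0.20, adjusted p = 0.00515). The core activator *Arntl* had a log2 fold change of -1.04 and was not called (adjusted p = 0.167). The hour at which each mouse was killed is not given in the sources used here.

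The largest change of all genes described here was in *Elmod2* (chr8:83312632-83332486, GRCm38, - strand). It encodes a GTPase-activating protein, which speeds GTP hydrolysis by Arf-like GTPases. *Elmod2* counted 1794, 1599, 2723 and 2461 in BATKO and 133, 121 and 167 in CTRL mice, a BATKO level 15.2-fold that of CTRL (log2 fold change 3.93, SE 0.22, adjusted p = 5.14e-08). All BATKO mice were about an order of magnitude above all CTRL mice. It was also the only gene called at 30 °C, with 726 to 892 in BATKO and 213 to 322 in CTRL mice (log2 fold change 1.63, SE 0.17, adjusted p = 6.65e-04). In the annotation it lies 14179 bases from the end of *Ucp1*, on the other strand and with no exonic overlap with another gene. On a high-fat diet its log2 fold change was 1.86 (adjusted p = 0.883) and on chow 2.57 (adjusted p = 0.313), neither called. The neighbour *Ucp1* was not called at 4 °C or at 30 °C (log2 fold change 0.35, adjusted p = 0.778).

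Several of the other large increases were as follows. *Car3*, a carbonic anhydrase abundant in adipocytes, counted 13030, 10410, 11720 and 7404 in BATKO and 715, 2213 and 4364 in CTRL mice (log2 fold change 2.13, SE 0.43, adjusted p = 0.0196). *Hcar1*, the lactate receptor, had 176, 137, 77.9 and 120 against 54.5, 19.8 and 40.4 (log2 fold change 1.73, SE 0.33, adjusted p = 0.0161). *Abcd2*, a peroxisomal fatty acid transporter, had 149 to 381 against 38.8 to 141 (log2 fold change 1.55, SE 0.37, adjusted p = 0.0375). *Mmd*, a membrane protein, had 7001, 4896, 3767 and 4718 against 1379, 2174 and 2265 (log2 fold change 1.39, SE 0.22, adjusted p = 0.00625). *Pde1a*, a phosphodiesterase that degrades cAMP and cGMP, had 213, 212, 189 and 215 against 89.7, 87.1 and 93.4 (log2 fold change 1.20, SE 0.16, adjusted p = 0.00105). The spread of *Pde1a* was small within each group, and BATKO mice at 4 °C were within the range of 204 to 301 seen at 30 °C in both genotypes, except mouse 11, at 189. *Snhg11*, a host gene of small nucleolar RNAs, had 51.9 to 409 against 10.6 to 35.7 (log2 fold change 2.90, SE 0.70, adjusted p = 0.0414).

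Of the 19 tested genes of secreted factors of fat, 2 were called higher and 1 lower, where 0.959% and 1.21% of all genes tested were called. *Igf1*, the insulin-like growth factor, counted 195, 175, 112 and 214 in BATKO and 64.2, 87.1 and 81.9 in CTRL mice (log2 fold change 1.16, SE 0.22, adjusted p = 0.0156). *Lep*, which encodes leptin and is also a white adipocyte marker, had 11.8 to 54.7 against 3.96 to 10.4 (log2 fold change 2.29, SE 0.53, adjusted p = 0.0347). All 5 white adipocyte markers tested had positive values, with a median of 1.06, and *Lep* was the 1 called. The part of white adipocytes in these values was not tested. The called lower secreted factor was *Bmp8b*. *Xbp1*, a transcription factor of the unfolded protein response, was the 1 call by edgeR of 17 endoplasmic reticulum genes (0.959% of all genes tested were called higher), with 798 to 1097 against 578 to 603 (log2 fold change 0.67, SE 0.14, adjusted p = 0.0236). DESeq2 also called *Manf*, a secreted factor of the endoplasmic reticulum, lower (log2 fold change -0.52, adjusted p = 0.113 with edgeR and 0.0411 with DESeq2).

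*Col12a1*, a fibril-associated collagen, and *Svep1*, an extracellular matrix protein, were higher in BATKO mice. *Col12a1* had 128, 119, 173 and 211 in BATKO and 54.5, 40.9 and 53.0 in CTRL mice (log2 fold change 1.67, SE 0.37, adjusted p = 0.0277). *Svep1* had 203, 218, 168 and 235 against 57.0, 89.7 and 73.8 (log2 fold change 1.49, SE 0.23, adjusted p = 0.00558), and overlaps *Gm26889* on the opposite strand. The fibroblast markers given above moved with them, with a median log2 fold change of 0.55 over 8 genes. None of the 8 was called by edgeR or DESeq2. At an unadjusted p under 0.05, 3 were higher (37.5%, against 7.76% of all genes tested). Whether fibroblasts account for part of either change was not tested. Of 8 endothelial markers, *Kdr*, the receptor of VEGF, was the 1 called lower, where 1.21% of all genes tested were called lower. *Kdr* had 937 to 1244 against 1713 to 2306 (log2 fold change -0.84, adjusted p = 0.0122). The endothelial list held 3 positive and 5 negative values, with a median of -0.08. The summed endothelial markers overlapped, at 423 to 624 CPM against 441 to 590 CPM.

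In 7 further lists no gene was called by edgeR. At an unadjusted p under 0.05 these held 5 of 19 genes for the TCA cycle (26.3%, all lower), 2 of 15 for branched-chain amino acid catabolism, 1 of 16 for the integrated stress response, 5 of 14 for the cytosolic heat shock proteins (35.7%, 3 lower and 2 higher), 1 of 8 for the mitochondrial genome, 0 of 9 for calcium cycling and 0 of 7 for the cell cycle. In the TCA cycle list, 18 of 19 values were negative. Over all genes tested the share at that threshold was 16.5%. For the TCA cycle the gene with the lowest adjusted p was *Idh3a* (log2 fold change -0.46, adjusted p = 0.154) and for branched-chain amino acid catabolism *Pcca* (-0.55, adjusted p = 0.102), both called by DESeq2 (adjusted p = 0.0403 and 0.0397). For the integrated stress response it was *Atf5* (-0.94, adjusted p = 0.0691, and 0.0107 with DESeq2). DESeq2 called 1 further gene of branched-chain amino acid catabolism and none in the 4 lists that follow. The gene with the lowest adjusted p was *Hspa4l* for the cytosolic heat shock proteins (-0.71, adjusted p = 0.181), *Ryr1* for calcium cycling (1.65, adjusted p = 0.718), *Mki67* for the cell cycle (0.99, adjusted p = 0.468) and *mt-Nd6* for the mitochondrial genome (-0.61, adjusted p = 0.241). The skeletal muscle genes varied between single mice, and *Ryr1* counted 1.01 to 75.5 in BATKO and 2.64 to 31.1 in CTRL mice.

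Between the same genotypes at 30 °C, edgeR called 1 of 13239 genes, 0.00755%, which was *Elmod2*, with 1209 at an unadjusted p under 0.05, and DESeq2 called 8. The difference between both genotype effects was tested as an interaction term in the fit of 16 mice. It was called with a lower value at 4 °C for 107 genes, 0.808%, and with a higher value for 42 genes, 0.317%. The interaction holds the same 7 mice at 4 °C as the genotype contrast, so both are given side by side only. Among the genes described here, those with the lowest adjusted p were *Cars2*, *Ckb* and *Ctsz* on the lower side, with differences in log2 fold change of -2.48 (SE 0.28, adjusted p = 8.04e-04), -3.70 (SE 0.44, adjusted p = 9.71e-04) and -2.19 (SE 0.30, adjusted p = 0.00540). On the higher side they were *Elmod2*, *Pde1a* and *Mmd*, with 2.297 (SE 0.26, adjusted p = 8.04e-04), 1.22 (SE 0.20, adjusted p = 0.0165) and 1.73 (SE 0.29, adjusted p = 0.0165). For *Ppargc1a* the interaction was not called (-1.38, adjusted p = 0.119). Over the 160 lower genes the median log2 fold change at 30 °C was 0.12, and over the 127 higher genes it was -0.02, against 0.04 over all genes tested. Without CTRL mouse 1, the interaction was called for 4 genes on the lower and 1 on the higher side.

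**Figure D3:**
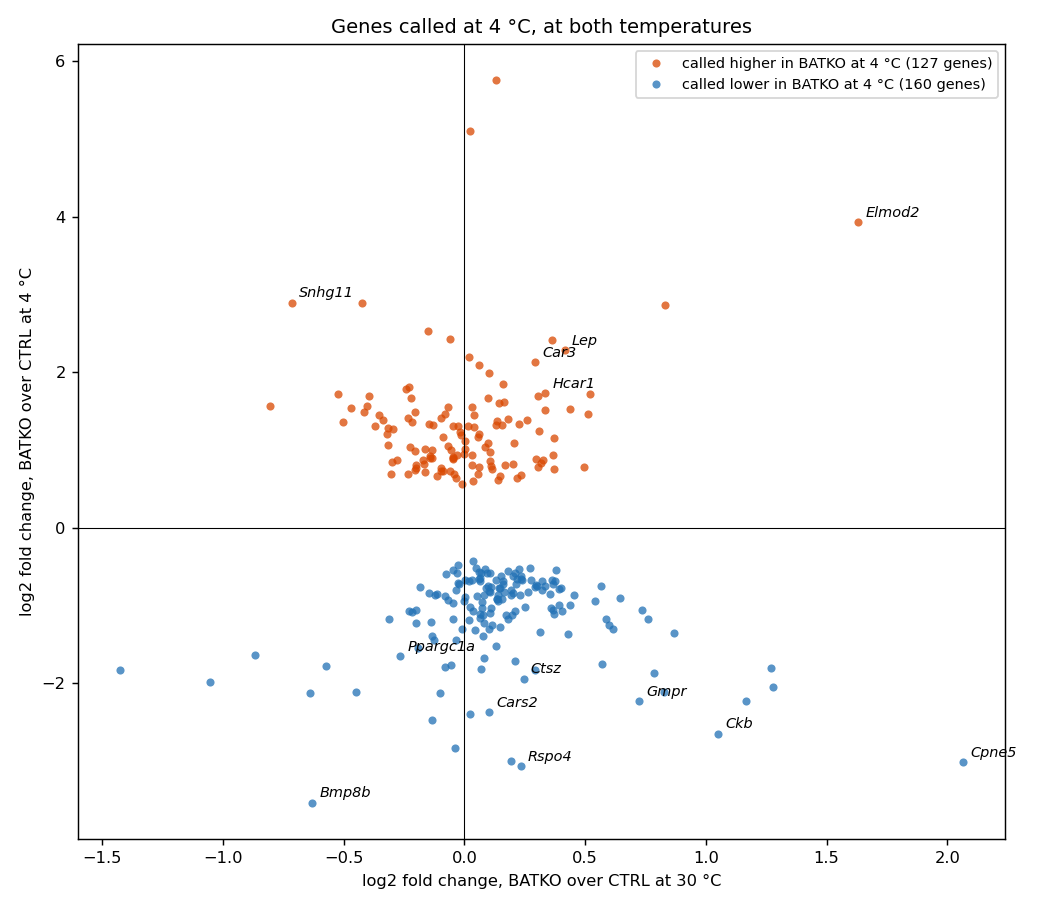
Log2 fold change of BATKO over CTRL mice at 30 °C (x axis) and at 4 °C (y axis) for the 287 genes called at 4 °C, which share no mouse between the axes. The points spread along the y axis because they were chosen there, while on the x axis most lie near 0 and *Elmod2* stands at 1.63.

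In a separate experiment, BATKO and CTRL mice were compared on a high-fat diet (3 BATKO, 4 CTRL) and on chow (2 BATKO, 4 CTRL). By edgeR no gene was called in either comparison, 0% and 0% of 12916 genes. At an unadjusted p under 0.05 there were 692 genes on the high-fat diet and 1024 on chow, and DESeq2 called 9 and 31 genes. Over the genes lower at 4 °C, the median log2 fold change was -0.03 on the high-fat diet and -0.10 on chow, against -0.001 and -0.03 over all genes tested. Over the genes higher at 4 °C the medians were -0.04 and 0.004.

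The response of BAT to thyroid hormone (TH) was measured in wild-type (WT) mice made hypothyroid with propylthiouracil (PTU) and then injected with TH, with 4 mice at each time. These mice are not among the 7 mice at 4 °C. At 24 h, 16.0% of 14138 genes were up and 14.0% down. Of the 160 genes lower in BATKO at 4 °C, 154 could be tested there, and 93 of these (60.4%) were up at 24 h and 4 (2.60%) down. Of the 127 higher genes, 124 could be tested, and 62 (50%) were down and 7 (5.65%) up. At 3 h, 4.97% of genes were up and 3.16% down. Of the lower genes 39 (25.3%) were up at 3 h and 1 was down, and of the higher genes 32 (25.8%) were down and 0 up. Taken the other way, 2193 of the genes up at 24 h were tested at 4 °C, of which 93 (4.24%) were lower and 7 (0.319%) higher in BATKO, while of 1905 genes down at 24 h 62 (3.25%) were higher and 4 (0.210%) lower. The median log2 fold change at 4 °C was -0.20 over the former and 0.13 over the latter. The counts are a description, with no test of the overlap.

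*Slco4a1* and *Bmp8b* had large responses to TH. Their log2 fold changes at 24 h were 7.09 (SE 0.79, adjusted p = 9.94e-08) and 5.50 (SE 1.24, adjusted p = 0.00114). *Ckb* followed with 3.33 (SE 0.56, adjusted p = 4.32e-05). *Ctsz* rose by 1.36 (adjusted p = 7.42e-04) and *Hk1* by 1.52 (adjusted p = 1.21e-04). *Ppargc1a* was up at 3 h (1.44, adjusted p = 0.0183) and not called at 24 h (0.73, adjusted p = 0.155). Among the higher genes, *Gpat3* (-4.26, adjusted p = 1.99e-08), *Car3* (-4.04, adjusted p = 1.99e-08), *Mmd* (-2.20, adjusted p = 2.43e-08) and *Elmod2* (-2.07, adjusted p = 3.09e-05) were down at 24 h. *Cars2* was not called at 24 h (-0.33, adjusted p = 0.364). *Hr* and *Klf9*, not called at 4 °C, responded to TH with 4.57 (adjusted p = 5.94e-09) and 1.31 (adjusted p = 1.10e-05). BATKO mice given PTU alone (n = 5) were also compared with WT mice given PTU alone (n = 4) by edgeR. Of genes lower at 4 °C, *Ckb* (2.18, adjusted p = 0.00103), *Hk1* (1.95, 1.61e-07) and *Bmp8b* (3.34, 0.0388) were higher in these BATKO mice. *Cars2* (-1.25, 5.06e-05) and *Gnas* (-0.56, 1.16e-05) were lower. Of genes higher at 4 °C, *Per3* (2.17, 1.62e-06) was higher and *Mmd* (-1.51, 1.3e-07) lower.

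**Figure D4:**
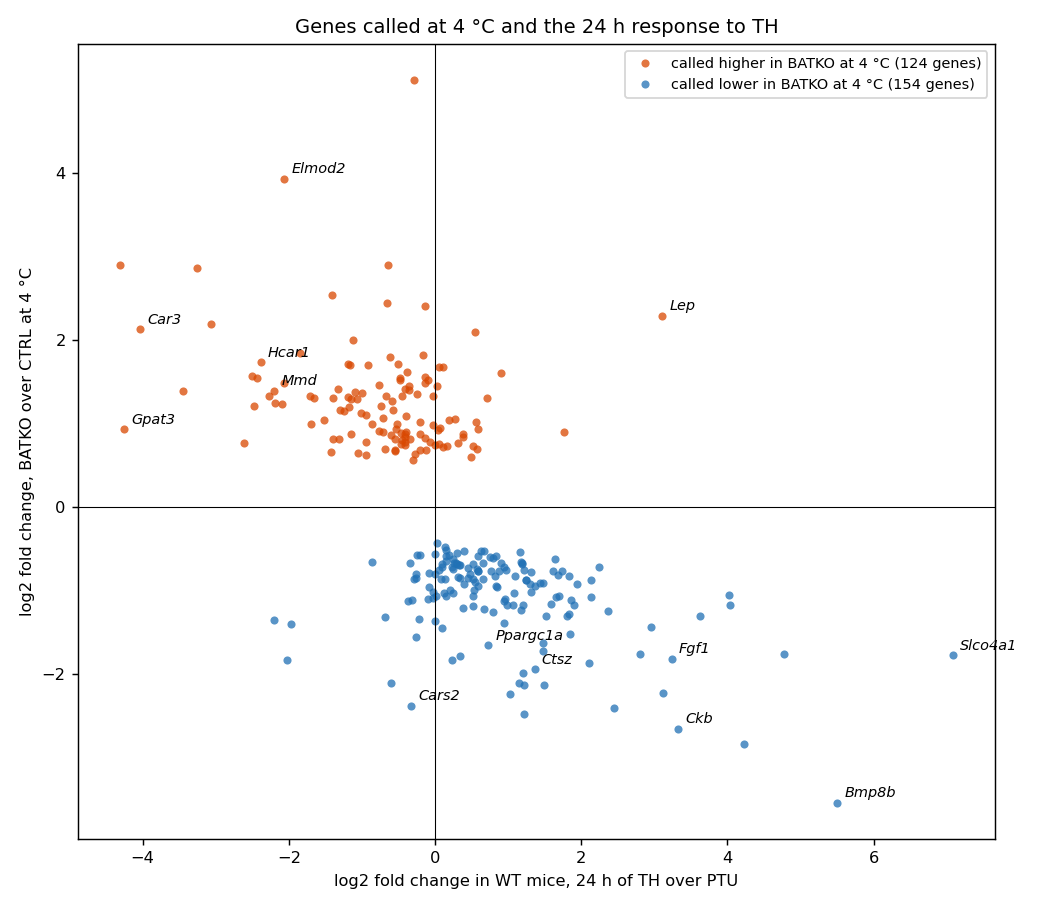
Log2 fold change in WT mice 24 h after TH over PTU-fed mice (x axis) and of BATKO over CTRL mice at 4 °C (y axis) for the called genes that were tested in both experiments. Of the 154 lower genes, 93 were called up on the x axis, and of the 124 higher genes, 62 were called down, with *Lep* (3.11) among the exceptions.

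Promoters of the called genes were read from RefSeq (GRCm38.p6), 250 bases before each annotated start. A window was found for 128 of the 160 lower and 92 of the 127 higher genes. The half-site of the thyroid hormone receptor, AGGTCA on either strand, was present for 14.1% of the lower genes, 13.0% of the higher genes and 12.8% of all 9511 tested genes with a window. TGACG on either strand, the half-site of cAMP-responsive factors, was present for 26.6%, 19.6% and 30.8%. A match of one motif can share an end letter with a match of the other. The shares lie near those of all genes or below them, and a match is a description of letters, not a bound site. The windows below show the letters in capitals for *Gmpr* and *Slco4a1* (AGGTCA or its complement) and for *Ppargc1a* and *Pck1* (TGACG or its complement), since these genes carry results above, each written 5′ to 3′ on the strand of the gene. They lie at chr13:45507194-45507443 (+), chr2:180460728-180460977 (+, before a start inside the gene), chr5:51567726-51567975 (-) and chr2:173152823-173153072 (+).
*Gmpr*: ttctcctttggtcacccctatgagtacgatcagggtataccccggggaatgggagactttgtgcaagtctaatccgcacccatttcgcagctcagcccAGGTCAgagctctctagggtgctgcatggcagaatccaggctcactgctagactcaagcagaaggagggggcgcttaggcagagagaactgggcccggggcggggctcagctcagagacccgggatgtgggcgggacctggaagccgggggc
*Slco4a1*: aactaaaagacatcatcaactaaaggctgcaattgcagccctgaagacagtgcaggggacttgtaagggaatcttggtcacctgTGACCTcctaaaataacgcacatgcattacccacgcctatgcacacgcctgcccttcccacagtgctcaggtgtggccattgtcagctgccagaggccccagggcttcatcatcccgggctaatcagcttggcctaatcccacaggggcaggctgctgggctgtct
*Ppargc1a*: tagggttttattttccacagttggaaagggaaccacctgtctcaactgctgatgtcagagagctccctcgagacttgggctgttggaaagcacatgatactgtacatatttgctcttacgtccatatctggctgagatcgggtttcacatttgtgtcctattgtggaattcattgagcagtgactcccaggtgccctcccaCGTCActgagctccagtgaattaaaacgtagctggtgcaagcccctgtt
*Pck1*: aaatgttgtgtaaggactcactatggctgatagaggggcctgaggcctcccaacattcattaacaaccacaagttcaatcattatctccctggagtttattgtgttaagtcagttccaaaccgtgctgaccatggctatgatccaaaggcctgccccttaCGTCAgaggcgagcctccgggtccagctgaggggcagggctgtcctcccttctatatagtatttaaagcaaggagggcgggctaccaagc

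The calls of the genes described here were examined with each mouse left out. Of 51 genes named by the rule, 32 were called, 15 higher and 17 lower. Without CTRL mouse 2, 19 of the 32 lost the call, among them *Ppargc1a*, *Slco4a1*, *Fabp3*, *Car3*, *Hcar1*, *Pck1*, *Gmpr* and *Igf1*, at adjusted p of 0.0508 to 0.198. Without CTRL mouse 1, 16 lost it (0.0566 to 0.163), among them *Hk1*, *Acsl5*, *Slco4a1* and *Igf1*. Without BATKO mouse 12, 15 lost it (0.0514 to 0.122). Without BATKO mouse 8 it was 9 (0.0503 to 0.0800), without BATKO mouse 7 it was 8 (0.0535 to 0.0841), without BATKO mouse 11 *Cpne5* and *Cox7a1* (0.0617 to 0.0735), and without CTRL mouse 5 *Gpat3* (0.0524). *Gpat3* kept its call in 1 of the 7 fits, and *Abcd2*, *Cpne5*, *Rspo4*, *Ifi27l2a* and *Gnas* in 2. In a fit of the 7 mice alone, 16 of the 32 lost the call (0.0546 to 0.123), among them *Ppargc1a*, *Car3* and *Per3*. Outside the rule, the call was kept in 6 of the 7 fits for *Cyp51*, in 3 for *Pfkp*, in 2 for *Pfkl*, *Alpl*, *Uqcrh*, *Lep*, *mt-Rnr2* and *4930458D05Rik*, and in 1 for *Esrra* and *Atp5e*, with adjusted p of up to 0.247 (*Esrra*). No named call changed sign. The log2 fold change of *Ppargc1a* stayed between -2.002 and -1.27 and that of *Snhg11* between 1.70 (without BATKO mouse 12) and 3.56 (without CTRL mouse 5). That of *Car3* was 2.85 without CTRL mouse 5, that of *Cpne5* -4.23 without BATKO mouse 8, that of *Gmpr* -3.13 without BATKO mouse 11 and that of *Rspo4* -2.37 without CTRL mouse 1.

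**Figure D5:**
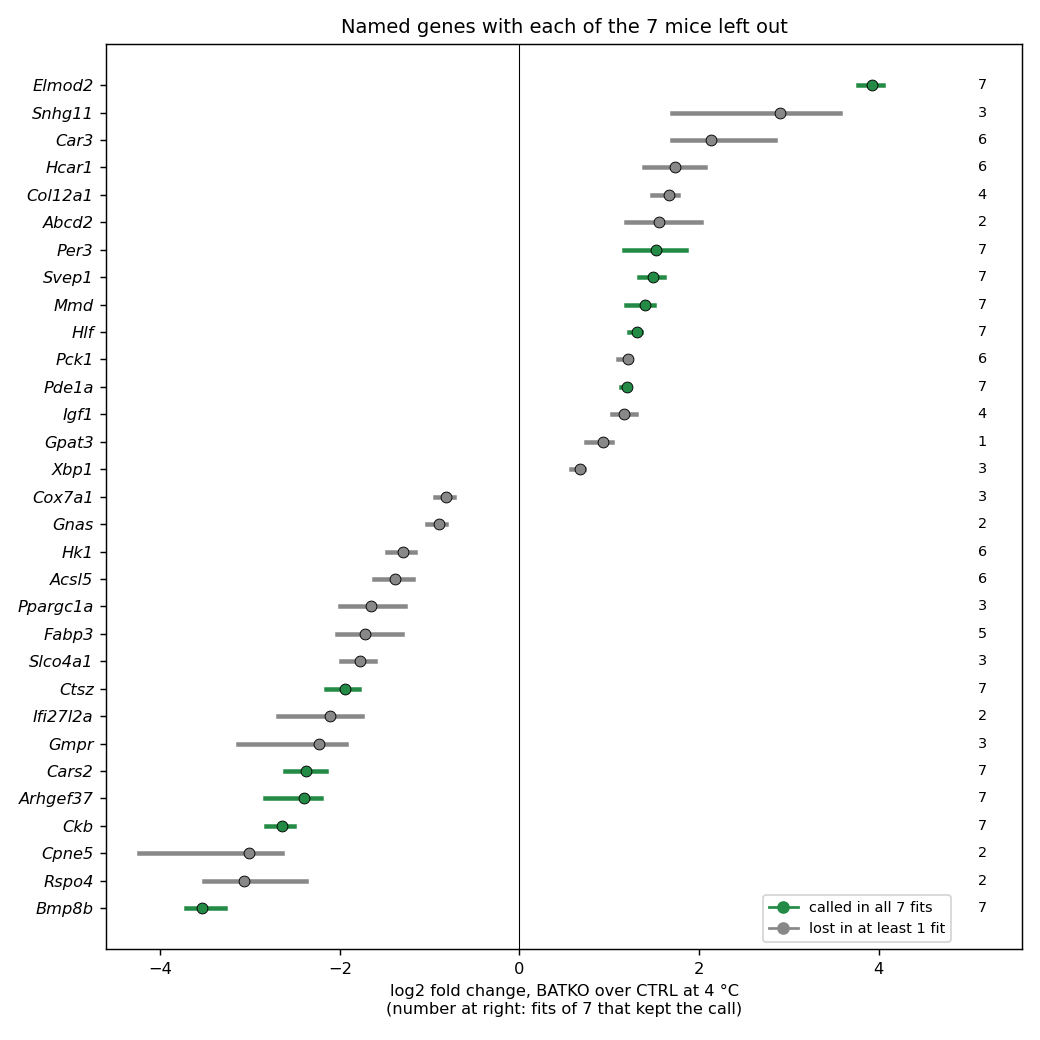
Log2 fold change of BATKO over CTRL mice at 4 °C for 31 of the 32 called genes of the rule (points) with the range over the 7 fits that omit 1 mouse (lines), and the number of those 7 fits in which the gene was called. All ranges stay on 1 side of 0, and 11 genes, from *Bmp8b* at -3.53 to *Elmod2* at 3.93, were called in all 7 fits.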

How the data were processed

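RNA of BAT (Trizol, Lexogen SENSE total RNA kit, Nextseq 500) was counted per gene by the authors, and the deposited values are raw counts, with 55341 genes listed. Per the submitters' processing notes, reads were mapped to mm10 with Bowtie2 2.3.2.2. The methods name another Bowtie version, and htseq-count for the counts. The annotation and the strand setting are not given in the sources used here. Counts were fitted as deposited with edgeR 4.0.16 in R 4.3.3 (quasi-likelihood test, TMM, all 16 mice of the temperature experiment, genes whose normalized counts averaged more than 10, Benjamini-Hochberg adjusted p under 0.05). The diet and TH tables were fitted separately. Normalized counts are counts per effective library size. Nothing states that mice came from separate litters or cages, and p-values measure the spread between these mice.

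Named genes were the 8 largest called changes in each direction (mean above 50, no overlap, symbols such as Gm and Rik passed over), 9 genes of TH and thermogenesis, the leading member of each list and the 3 leading interaction genes in each direction. Members and lists were chosen with earlier results of these data known. DESeq2 1.42.0, RLE scaling, other filters, a fit of 7 mice, removal of mitochondrial genes and omission of each mouse were tried. Gene positions are those of GENCODE on GRCm38, in which 14 symbols were not found. Pairs of mice at 4 °C differed by more than sampling noise, so none was counted as a copy. Some called genes are not reported here by name.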

Additional observations from a re-analysis of the deposited data

Results flagged for a closer look

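In groups of 4 or 5 mice, 153 sets of values of the named genes were examined for a single mouse far from the others, and 9 were found, where chance gives about 1 in 20. At 4 °C, BATKO mouse 12 held 409.1 normalized counts of *Snhg11*, against 51.9 to 81.4 in the other BATKO mice. BATKO mouse 11 held 623.9 of *Ppargc1a* (404 to 430 in the others) and 188.7 of *Pde1a* (212 to 215). At 30 °C, CTRL mouse 22 stood apart in 3 genes, with 408 of *Ppargc1a* (181 to 215), 13880 of *Pck1* (7602 to 8602) and 405.9 of *Pcca* (363 to 370). CTRL mouse 20 held 1.718 of *Arhgef37* (4.17 to 4.46). BATKO mouse 13 held 14.32 of *Cpne5* (0 to 3.74) and BATKO mouse 17 held 854.3 of *Dio2* (65.7 to 258).

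The genotype difference at 4 °C differed from that at 30 °C by the interaction test of edgeR for 15 named genes. The values are log2 fold change at 4 °C minus that at 30 °C. It was higher at 4 °C for *Snhg11* (3.61), *Elmod2* (2.297), *Mmd* (1.728), *Svep1* (1.69), *Hlf* (1.352), *Igf1* (1.249), *Pde1a* (1.216) and *Pck1* (1.145). It was lower for *Ckb* (-3.699), *Gmpr* (-2.955), *Ifi27l2a* (-2.933), *Bmp8b* (-2.904), *Cars2* (-2.476), *Ctsz* (-2.185) and *Hk1* (-1.911). The adjusted p of these 15 ran from 8.04e-04 (*Cars2* and *Elmod2*) to 0.0486 (*Snhg11*).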

How the results depend on the processing

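No called gene at 4 °C changed sign under any alternative. Of the 287 calls, 281 were also made by DESeq2, 282 under RLE scaling, 233 with no filter, 234 with a mean above 50, 281 without mitochondrial genes and 53 with the 7 mice alone. DESeq2 gave 218 higher and 425 lower genes, and 205 and 442 for the interaction. It called 8 genes at 30 °C, 9 on the high-fat diet and 31 on chow. With the 7 mice alone, 16 genes were higher and 45 lower. With 1 mouse left out, 19 (without CTRL mouse 2) to 200 (without CTRL mouse 5) genes were higher and 35 to 366 lower, the same mice giving the ends. The interaction ran from 1 to 334 genes higher and from 4 to 576 lower, least without CTRL mouse 1 and most without CTRL mouse 5. The difference in mitochondrial share ran from -6.299 (without CTRL mouse 1) to -1.596 percentage points (without BATKO mouse 11). Among genes not called, *Adrb3* turned to -0.001 with DESeq2, -0.009 with RLE and -0.007 without mitochondrial genes, and ran from -0.152 to 0.31 with 1 mouse left out, turning also at -0.138, -0.045, -0.02 and -0.019. *Thrsp* ran from -0.732 to 0.087 and *Klf9* from -0.398 to 0.013. The cause was not tested. No paired analysis was possible because the BATKO and CTRL mice at 4 °C share no mouse number.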

Other observations

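Outside the lists and the rule, *Nenf* and *Egln1*, chosen after their values were seen, were lower in BATKO mice at 4 °C. *Egln1* encodes an oxygen-sensing prolyl hydroxylase and counted 1668 to 2670 in BATKO and 5402 to 5972 in CTRL mice (log2 fold change -1.25, adjusted p = 0.00105). *Nenf*, a secreted heme-binding factor, had 358 to 531 against 987 to 1180 (log2 fold change -1.23, adjusted p = 6.78e-04). Both had a called interaction with temperature, with a difference in log2 fold change of -1.37 for *Egln1* (adjusted p = 0.0165) and -1.31 for *Nenf* (adjusted p = 0.0115).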
